A study of Mus musculus with 7 samples.

Results

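The 38 genes described here are mouse genes of innate immune sensing and interferon signalling, out of 21938 protein-coding genes of the GENCODE M21 annotation. They were taken from a list of names, and each was followed through the occupancy peaks whose summit, the position of highest signal, lay within 100 kb of its annotated start. They fall into 5 groups by role: 8 interferon regulatory factors (IRFs), 9 Toll-like receptors (TLRs), 8 adaptors and kinases that act below the TLRs, 9 other sensors of microbial or damaged material, and 4 genes of NF-kB. Occupancy was measured with CUT&Tag, a method that brings a transposase to an antibody-marked protein and sequences the DNA it inserts into nearby. The peaks number 6254 for GATA2 and 1079 for 9aa-Ins, of which 52 and 7 lay within 100 kb of a member.

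The cells were hi-77-/- cells, fetal liver hematopoietic progenitors immortalized with Hoxb8 and kept in medium with β-estradiol. Both groups lack the enhancer 77 kb upstream of Gata2. One group was infected for 3 days with a retrovirus for HA-tagged GATA2. The other received HA-tagged 9aa-Ins, a GATA2 with an insertion between its zinc fingers. Infected cells were sorted as GFP+. The labels list 7 libraries, and the 2 anti-HA libraries of each construct were merged by the authors into the 2 peak lists used here. The other 3 libraries used an antibody to GATA2 and are not analysed here. By the study's methods, sorted cells were pooled and only then divided into replicates. Each list was read here as 1 call on merged reads. No peak value therefore has an SD, a replicate check or a test of the difference between constructs. The constructs were supplied by a retrovirus, and the amount of each protein was not analysed here.

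GATA2 is a zinc-finger transcription factor of blood stem and progenitor cells that binds the motif WGATAR, in which the letters GATA follow an A or a T and precede an A or a G. TLRs, NOD-like receptors and cytosolic nucleic-acid sensors recognize microbial material and signal through adaptors and kinases to NF-kB and the IRFs, which switch on inflammatory and interferon genes. In blood progenitors the same factors also take part in lineage choice, and IRF8 is a regulator of monocytes and dendritic cells. The comparison asked which of these genes carry GATA2 near them, at what distance and on which motif, and whether 9aa-Ins was called at the same places. The authors' text names 8 of the members (Irf8, Tlr1, Tlr6, Tlr7, Tifab, Nlrp1a, Trem1 and Ifi209) among genes repressed by GATA2.

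The sites below show the GATA motif as it occurs in peaks near members. They are 41 bases of the plus strand of GRCm38, the assembly of mm10, read from RefSeq and centred on the WGATAR closest to the summit, with the motif in capitals on whichever strand it lies. The first 2 are the only WGATAR peaks for which a member had the closest gene start. The others are the WGATAR peaks of highest pileup near members that did not touch an annotated untranslated region.
Nfkb1, 4.89 kb upstream, chr3:135696431-135696471: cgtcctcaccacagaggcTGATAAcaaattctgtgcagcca
Irf2, 25.5 kb downstream, chr8:46765141-46765181: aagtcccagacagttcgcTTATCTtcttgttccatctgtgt
Irf7 by way of the Tmem80 promoter, chr7:141327798-141327838: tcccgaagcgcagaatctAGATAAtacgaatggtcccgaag
Rela by way of the Kat5 flank, chr19:5613132-5613172: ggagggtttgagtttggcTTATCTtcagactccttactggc
Nfkb2 by way of the Mfsd13a intron, chr19:46343791-46343831: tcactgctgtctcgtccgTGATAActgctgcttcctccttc
The motif in the Nfkb1 peak lay 14 bp from the summit. The distance was 22 bp in the Mfsd13a intron, 62 bp beside Kat5, 76 bp at the Tmem80 promoter and 92 bp in Irf2. The Irf2 and Kat5 sites carry the motif on the minus strand, so that it reads TTATCT above.

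Members were near GATA2 peaks about as often as any gene. A GATA2 peak lay within 100 kb of 20 of the 38 members (52.6%, 95% Wilson interval 37.3 to 67.5), and 52.1% of all protein-coding genes had one. Within 10 kb the counts were 6 of 38 members (15.8%, interval 7.44 to 30.4) against 21.7% of all genes. Within 1 kb they were 3 of 38 (7.89%, interval 2.72 to 20.8) against 15.9%. The median distance to the nearest GATA2 peak was 81.9 kb over the members and 89.1 kb over all genes. The mean number of peaks within 100 kb was 1.37 per member and 1.36 per protein-coding gene. 9aa-Ins peaks lay within 100 kb of 7 members (18.4%, interval 9.22 to 33.4) against 18.6% of all genes, and within 10 kb of 1 member (2.63%) against 5.53%. Shares of the members thus lay near the background at 100 kb, and the Wilson intervals held the background at 10 kb as well. The intervals treat genes as independent, although neighbours such as Tlr1 and Tlr6 share their nearest peak, and they cover counting error only.

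**Figure D1:**
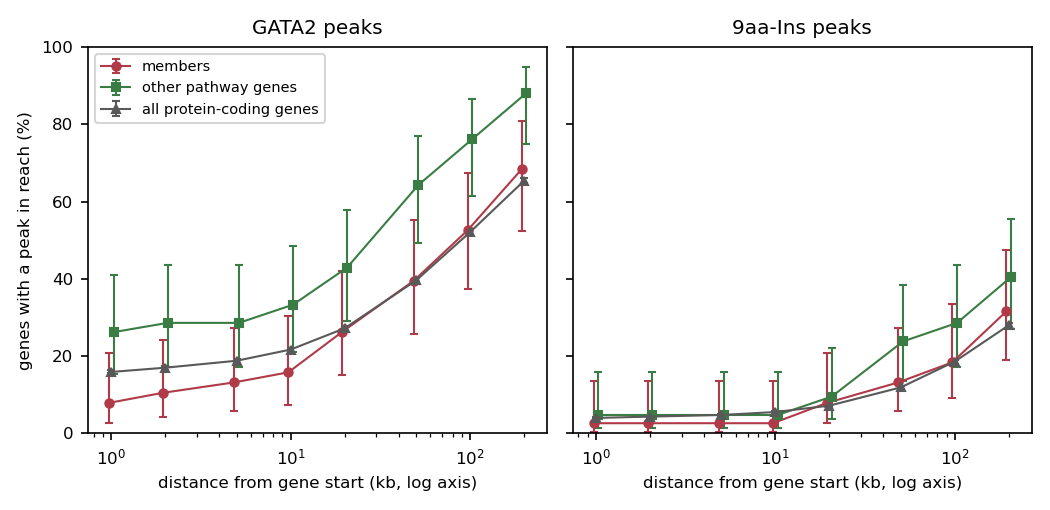
Share of genes with a peak summit within a given distance of the gene start (log axis, kb; error bars, 95% Wilson intervals) for the 38 members, 42 other pathway genes and all 21938 protein-coding genes, with GATA2 peaks on the left and 9aa-Ins peaks on the right. The members follow all genes from 20 kb outwards, at 52.6% against 52.1% for GATA2 within 100 kb, while the other pathway genes lie above them at 76.2%.

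Of the 52 GATA2 peaks, 7 had a member as the closest protein-coding start (13.5%, interval 6.68 to 25.3), and these belonged to 5 of the 38 members: Irf1, Irf2, Irf3, Nfkb1 and Nfkbia. Of all protein-coding genes, 20.3% were the nearest gene of a GATA2 peak. Several genes can lie within 100 kb of 1 peak, so most links over all genes are to peaks closest to another gene. Of the other 45 peaks, 34 were at a promoter (75.6%), defined as 2 kb upstream to 100 bp downstream of a protein-coding transcript start, and 31 lay within 500 bp of the start of the other gene. The remaining 15 members with a peak had only peaks closest to other genes, Irak4 among them by a difference of under 100 bp. In total, 35 of the 52 peaks were at promoters (67.3%, interval 53.8 to 78.5), against 50.4% of all GATA2 peaks. The share varied with the distance, at 53.3% within 50 kb (16 of 30) and 33.3% within 10 kb (2 of 6). It was 14.3% where a member was the nearest gene (1 of 7). The last 2 were below the share of all GATA2 peaks but rest on too few peaks to read as a difference. No share over all genes was taken at these same distances. At 100 kb, a further 8 were in introns, 2 in exons and 7 between genes. Members with a peak had a median of 4.5 other protein-coding starts within 100 kb, and members without one had 2. Among members with 0 to 2 such neighbours, 6 of 19 had a GATA2 peak (31.6%), where 35.3% of all genes of that density did. With 3 to 6 neighbours the values were 9 of 14 (64.3%) against 57.9%, and with 7 to 25 they were 5 of 5 (100%) against 71%.

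Signal at these peaks was low. The pileup (reads covering the summit, recovered from fold enrichment) had a median of 14 and ran from 9 to 48 over the 52 peaks, where the median of the whole GATA2 list was 15. Fold enrichment over the background had a median of 10.2 (range 6.83 to 33.5) against 10.9 in all GATA2 peaks. The lowest pileup called in either list was 9 reads, so 8 reads was taken as the most that a site without a 9aa-Ins call held, apart from stretches too short to be called. The exact Poisson 95% interval of the pileup, which covers counting error only, began above 8 reads for 22 of the 52 peaks (42.3%), against 53% of all GATA2 peaks. Among the 47 peaks with no 9aa-Ins partner it did so for 17 (36.2%, interval 24 to 50.5), a share not taken over all such peaks of the list. The count takes 8 reads as a fixed limit without counting error of its own. The 17 peaks are therefore not a count of sites where 9aa-Ins was lower. At the Ggct site in both lists, 18 reads with GATA2 and 9 with 9aa-Ins were not told apart by the interval of their ratio (0.853 to 5.05).

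WGATAR occurred within 100 bp of the summit in 12 of the 52 peaks (23.1%, interval 13.7 to 36.1), against 30.3% of all GATA2 peaks. Windows of the same 201 bp placed 2 kb to each side of these peaks held it in 24 of 104 cases, which is also 23.1%. These flanks were pooled over promoter and other peaks and were not matched for GC content. Within the peaks, WGATAR was present in 4 of the 35 at promoters (11.4%) and in 8 of the 17 others (47.1%). The values over all GATA2 peaks were 13.9% and 47%. By role, the motif was in 6 of 26 peaks near IRFs, 4 of 13 near NF-kB genes and 2 of 7 near other sensors. The 2 peaks near TLRs and the 4 near adaptors and kinases lacked it, which is too few to read as a difference. The ETS core GGAAG was found in 35 of the 52 windows (67.3%) against 61.7% of all GATA2 peaks. The E-box CANNTG was in 30 (57.7%) against 53.9%, and the RUNX motif TGTGGT in 5 (9.62%) against 16.2%. The AP-1 motif TGANTCA was in 1 peak (1.92%) against 6.33%. The interferon-stimulated response element, which IRFs bind, had a match in 1 as well (1.92%) against 1.57%. All motifs were searched on both strands, and their matches can overlap.

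**Figure D2:**
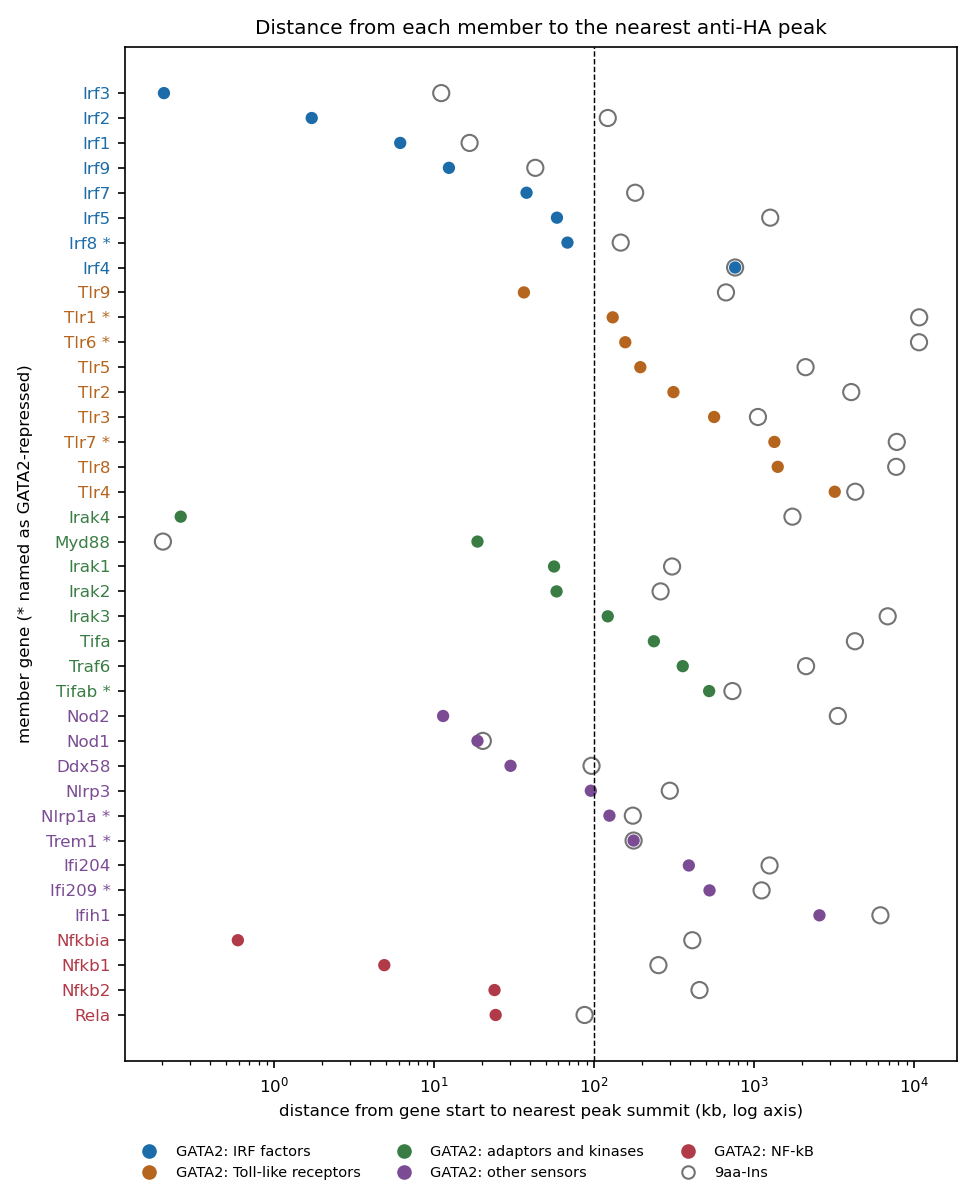
Distance in kb (log axis) from the start of each of the 38 members to the nearest GATA2 summit (filled, coloured by role) and the nearest 9aa-Ins summit (open rings); the dashed line marks 100 kb and asterisks mark members named as repressed by GATA2. The 4 NF-kB genes and 7 of 8 IRFs lie left of the line for GATA2, and 8 of 9 TLRs lie right of it.

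GATA2 peaks lay within 100 kb of 7 of 8 IRF genes (87.5%, interval 52.9 to 97.8, against 52.1% of all genes) and within 10 kb of 3 (37.5%, interval 13.7 to 69.4, against 21.7%). 9aa-Ins peaks lay within 100 kb of 3 (37.5% against 18.6%). The 26 GATA2 peaks were spread unevenly, with 9 around Irf3, 5 around Irf7, 4 around Irf9, 3 each around Irf1 and Irf2, and 1 each at Irf5 and Irf8. Irf3, Irf7 and Irf9 also stand in dense gene neighbourhoods, with 11, 12 and 19 other protein-coding starts within 100 kb.

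Irf3 encodes the factor that induces type I interferon after cytosolic and TLR3 or TLR4 sensing. Its own promoter held a GATA2 peak at chr7:44997367-44997554, whose summit was 205 bp from the Irf3 start, in the stretch shared with the divergent gene Bcl2l12. The pileup there was 12 reads (interval 6.2 to 21) and the fold enrichment 8.88, with no WGATAR and no 9aa-Ins peak. A site 11.1 kb upstream, at the promoter of the arginine methyltransferase gene Prmt1, had 16 reads with GATA2 and a WGATAR match at the summit itself. 9aa-Ins was called there with 12 reads. In an intron of Cpt1c 27.3 kb upstream, a peak of 11 reads had its WGATAR match 24 bp from the summit. The other peaks around Irf3 had 11 to 28 reads, no WGATAR and no 9aa-Ins call, and all but 1 of them were at promoters of other genes.

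Irf2 encodes a relative of IRF1 that competes with it on interferon-responsive promoters. No other protein-coding gene starts within 100 kb of it, and it had the closest start to each of its 3 peaks. They had 11 reads at 1.72 kb and 16 reads at 25.5 kb into the gene, both intronic, and 14 reads at 52.8 kb upstream. Only the peak at 25.5 kb, chr8:46764972-46765401, had WGATAR, and its interval was 9.15 to 26 reads. No 9aa-Ins peak was within 100 kb of Irf2. Irf1, the founding interferon regulatory factor, had a peak of 13 reads 6.15 kb upstream at chr11:53763710-53763904 (interval 6.92 to 22.2), between genes and without WGATAR. A Rad50 promoter peak 62.6 kb upstream had 11 reads and TGATAG at 96 bp from its summit. A 9aa-Ins peak of 11 reads lay 16.7 kb downstream of the Irf1 start, in an intron of Gm12216 and closest to the start of Gm17334. No GATA2 peak overlapped it, and its interval of 5.49 to 19.7 reads reached below the lowest pileup called with GATA2.

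Irf7 encodes the IRF that amplifies interferon production. Its nearest peak was 37.9 kb away at the Phrf1 promoter with 13 reads. The peak of 21 reads 61.4 kb upstream, between Tmem80 and Deaf1, and the peak of 14 reads 44.7 kb downstream, closest to Rassf7, had WGATAR. Irf9 encodes a DNA-binding factor of the type I interferon response. Its nearest peak, of 23 reads at 12.4 kb upstream, stood at the promoters of Psme2 and Rnf31. The site with the highest pileup near any member, 48 reads, lay 42.9 kb upstream of Irf9 at the promoters of A730061H03Rik and Dcaf11, and 9aa-Ins was called there with 13 reads. Irf5, which acts below TLR7 and TLR9, had 1 peak of 12 reads, 58.7 kb upstream at Atp6v1f. Irf8 had 1 peak of 13 reads, 68.3 kb upstream, with a summit 54 bp from the start of Gm27021 at the promoters of Cox4i1 and Emc8. Neither the Irf5 nor the Irf8 peak had WGATAR or a 9aa-Ins partner. Irf4, a lymphoid IRF, was the member of the group without a peak, and the closest was 763 kb away at E2f3.

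**Figure D3:**
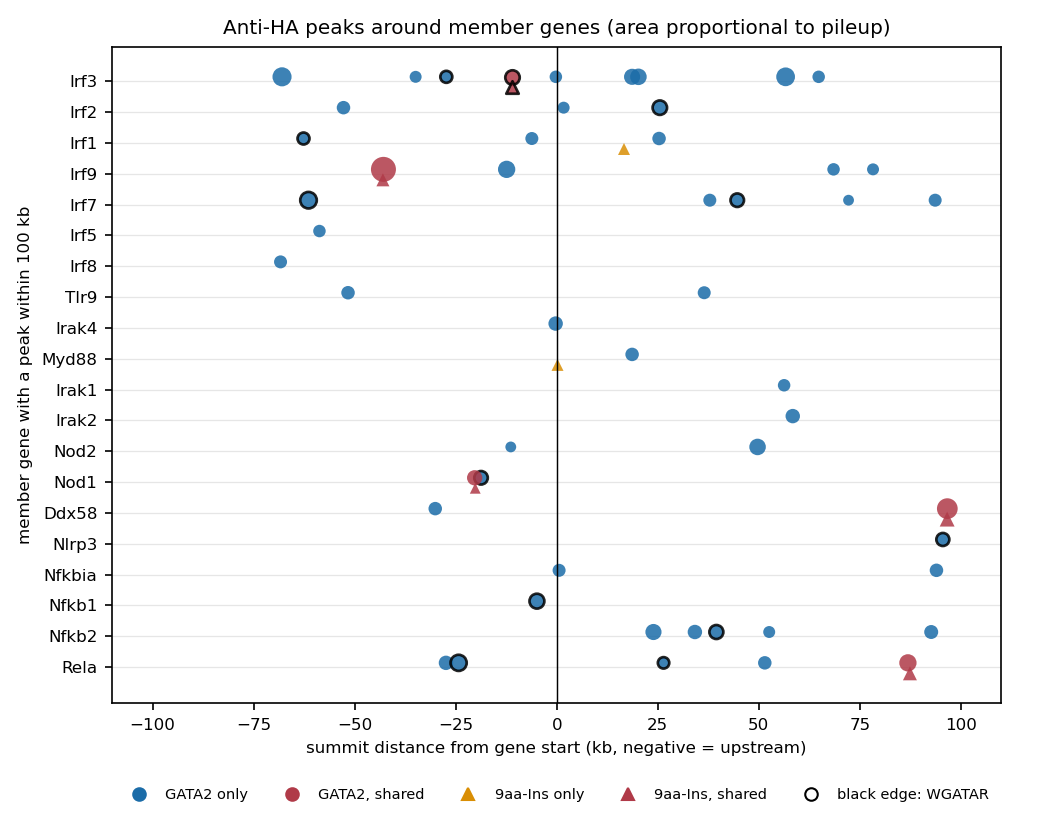
Position of every GATA2 peak (circles) and 9aa-Ins peak (triangles) within 100 kb of a member, in kb from the gene start with negative values upstream; symbol area is proportional to pileup, red marks sites in both lists, and a black edge marks WGATAR within 100 bp of the summit. Few symbols lie near 0, and the 5 sites in both lists are at Irf3, Irf9, Nod1, Ddx58 and Rela.

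Each of the 4 NF-kB genes had a GATA2 peak within 100 kb (100%, interval 51 to 100, against 52.1% of all genes), and 2 had one within 10 kb (50%, interval 15 to 85, against 21.7%). The median distance to the nearest was 14.4 kb, against 89.1 kb over all genes. Rela and Nfkb2 stand in dense gene neighbourhoods, with 12 and 7 other protein-coding starts within 100 kb, while Nfkbia has 1 and Nfkb1 has 0. The part of gene density in these shares was not tested. Nfkb1, which encodes p105 and p50, had 1 peak of 17 reads (interval 9.9 to 27.2), between genes 4.89 kb upstream at chr3:135696344-135696637. It carried TGATAA close to its summit, no 9aa-Ins peak overlapped it, and no other protein-coding gene starts within 100 kb of Nfkb1. Nfkbia encodes the inhibitor that holds NF-kB in the cytoplasm and is itself an NF-kB target. It had an intronic peak of 13 reads 594 bp inside the gene, without WGATAR, and another of 14 reads 94 kb away at the Psma6 promoter.

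The nearest peaks of Rela and Nfkb2 were at neighbours. For Rela, which encodes p65, the 2 sites with WGATAR had 20 reads 24.3 kb upstream, beside the acetyltransferase gene Kat5, and 10 reads 26.4 kb downstream at the Sipa1 promoter. In an intron of Ehbp1l1 86.9 kb downstream, peaks of the lists overlapped, with 23 reads for GATA2 and 15 for 9aa-Ins. Their summits, at chr19:5724395 and chr19:5724892, lay more than 200 bp apart. For Nfkb2, which encodes p100 and p52, the nearest peak had 20 reads 23.9 kb downstream at Fbxl15 and Psd, and the only one of its 5 with WGATAR had 15 reads in an intron of Mfsd13a 39.5 kb downstream.

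TLR genes were mostly without peaks. Of the 9, only Tlr9, the endosomal receptor for unmethylated CpG DNA, had GATA2 peaks within 100 kb (11.1%, interval 1.99 to 43.5, against 52.1% of all genes). None had a 9aa-Ins peak in that range (Wilson upper bound 29.9%, against 18.6%). The nearest Tlr9 peak had 13 reads 36.5 kb downstream, between genes and closest to Alas1, and the other had 14 reads 51.6 kb upstream at Wdr82. Neither had WGATAR. The median distance over the group was 314 kb. Tlr1 and Tlr6, which pair with TLR2 to sense bacterial lipopeptides, lie side by side, and the closest peak of both was the same Klf3 promoter peak of 10 reads, at 131 kb and 157 kb. Tlr5, the flagellin receptor, had its closest peak 195 kb away in an intron of Disp1, and Tlr2 had it 314 kb away at Mnd1. For Tlr3, a receptor of double-stranded RNA, the distance was 564 kb. Tlr7 and Tlr8, neighbouring receptors of single-stranded RNA, shared a closest peak of 11 reads in Msl3 at 1343 kb and 1409 kb. Tlr4, the lipopolysaccharide receptor, lay farthest at 3202 kb. The TLR genes had a median of 2 other protein-coding starts within 100 kb, and the IRF genes had 4.5. The part of gene density in the difference between the groups was not tested.

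Among adaptors and kinases, 4 of 8 had a GATA2 peak within 100 kb (50%) and 1 had a 9aa-Ins peak (12.5%), near the 52.1% and 18.6% of all genes. Irak4, the kinase that starts signalling from MYD88, was the 1 of 8 with a GATA2 peak within 10 kb (12.5%, interval 2.24 to 47.1, against 21.7% of all genes). The summit of that peak, chr15:94543260-94543878, was 261 bp upstream of Irak4 and 165 bp from the start of the neighbouring gene Pus7l. The pileup was 16 reads (interval 9.15 to 26) and the fold enrichment 11.6, with no WGATAR. Irak1 had a peak of 12 reads 56.3 kb away at Hcfc1, and Irak2 one of 16 reads 58.4 kb away at Tatdn2.

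Myd88 encodes the adaptor of nearly all TLRs. It was the only member with a 9aa-Ins peak inside the gene. The summit lay 202 bp downstream of the start at chr9:119341150-119341352, in the promoter window that Myd88 shares with Acaa1a. The pileup with 9aa-Ins was 11 reads (interval 5.49 to 19.7), and no GATA2 peak overlapped it. The interval reached below 9, so a difference between constructs was not detectable at this site. The closest GATA2 peak had 14 reads 18.7 kb downstream at the Oxsr1 promoter. Irak3, an inhibitory relative of the IRAK kinases, Tifa and Traf6, which carry the signal on to NF-kB, and Tifab, which restrains it, had no peak within 100 kb. Their closest GATA2 peaks were 122 kb, 237 kb, 359 kb and 525 kb away.

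The windows below are the 61 bases around the summit, plus strand of GRCm38, for peaks close to the start of a member that lacked WGATAR. They are shown because they are the closest called occupancy to these genes, and the Irf3 promoter window is left out because it overlaps an untranslated region. Capitals mark GGAAG or its complement CTTCC, which was found in the Nfkbia window and in none of the other 4 at this length. In the 201 bp windows used for the motif counts, the Irak4 peak had 1 match, the Irf2 and Myd88 peaks 2 each and the Irf1 peak 0. The windows were chosen after the values were seen.
Nfkbia intron, chr12:55492023-55492083: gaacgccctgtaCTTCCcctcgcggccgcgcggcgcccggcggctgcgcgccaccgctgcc
Irak4 promoter, chr15:94543352-94543412: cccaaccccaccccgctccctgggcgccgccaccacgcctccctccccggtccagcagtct
Irf2 intron, chr8:46741422-46741482: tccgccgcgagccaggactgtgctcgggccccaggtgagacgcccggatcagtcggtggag
Irf1 upstream, chr11:53763836-53763896: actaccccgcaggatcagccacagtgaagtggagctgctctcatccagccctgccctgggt
Myd88 promoter, 9aa-Ins, chr9:119341179-119341239: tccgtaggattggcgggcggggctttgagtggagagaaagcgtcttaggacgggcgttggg

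Among the other sensors, a GATA2 peak lay within 100 kb of 4 of 9 (44.4% against 52.1% of all genes) and a 9aa-Ins peak within 100 kb of 2 (22.2% against 18.6%). None had a GATA2 peak within 10 kb, where the Wilson upper bound of 29.9% lay above the 21.7% of all genes. Nod2, a sensor of bacterial peptidoglycan, had a peak of 9 reads, the lowest called, 11.4 kb upstream in an exon of Snx20. Its other peak of 21 reads was 49.7 kb downstream, 6 bp from the start of the deubiquitinase gene Cyld. Nod1, its relative, had 2 peaks around Ggct. The peak at 18.7 kb had 14 reads and AGATAA 58 bp from its summit, and the peak at 20.3 kb was in both lists. Ddx58, which encodes the RNA sensor RIG-I, had a peak of 14 reads 30.1 kb upstream at Topors and a site in both lists 96.7 kb away at the Aco1 promoter. Nlrp3, the sensor of a major inflammasome, had 1 peak of 13 reads with AGATAG 14 bp from its summit, between genes and closest to Mprip.

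The Nlrp3 peak, at 95.6 kb, was the last nearest peak inside the limit of 100 kb, and the peak nearest to Irak3, at 122 kb, was the first outside it. Ifih1, which encodes the RNA sensor MDA5, had its closest GATA2 peak 2569 kb away. Ifi204 and Ifi209, interferon-inducible genes of one cluster, had the same closest peak in an exon of Olfr420 at 392 kb and 528 kb. Over the 18 members without a GATA2 peak within 100 kb, the closest ran from 122 to 3202 kb with a median of 376 kb.

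Of the 8 members named in the authors' text as repressed by GATA2, 1 had a GATA2 peak within 100 kb (12.5%, interval 2.24 to 47.1) and 0 had a 9aa-Ins peak (Wilson upper bound 32.4%). The shares over all genes were 52.1% and 18.6%. From this same assay, the study showed Ifi209, Tifab, Nlrp1a and Trem1 as repressed loci that GATA2 did not occupy. For these genes the missing peak was thus known beforehand, so the contrast with all genes is partly fixed by their choice. The values are a description only. The one of the 8 with a peak was Irf8. Nlrp1a, an inflammasome sensor, had its closest peak at 125 kb (22 reads, Mis12 promoter), and Trem1, a receptor that amplifies myeloid inflammation, at 177 kb (27 reads, Nfya promoter). 9aa-Ins was also called at the Nfya site, with 12 reads. The closest peak of Tifab, 525 kb away in an intron of Smad5, and that of Ifi209 had WGATAR, and those of the other 6 did not. The median distance was 167 kb for the 8 named genes and 89.1 kb over all genes, and the named genes had a median of 2 other protein-coding starts within 100 kb, where all genes had 3. RNA was not analysed here, so these distances say nothing about expression.

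At the 5 sites in both lists, the GATA2 pileup was higher in 5 of 5. They make up 9.62% of the 52 GATA2 peaks (interval 4.18 to 20.6), against 15.3% of all GATA2 peaks. Within 200 kb the share was 17.6% (21 of 119), above that of all GATA2 peaks, and within 10 kb it was 0% (0 of 6). At 100 kb it was 3.85% (2 of 52) with a reciprocal overlap of 50% and 7.69% (4 of 52) with summits within 200 bp. Of the 7 9aa-Ins peaks near members, 5 overlapped a GATA2 peak (71.4%), against 88% of all 9aa-Ins peaks. At the A730061H03Rik and Dcaf11 promoters near Irf9, GATA2 had 48 reads and 9aa-Ins had 13, a ratio of 3.69 (95% interval from counting 1.97 to 7.43). At the Aco1 promoter near Ddx58 the pileups were 33 and 17, with a ratio of 1.94 (1.05 to 3.72). These were the 2 sites whose interval lay above 1. The intervals reached 1 or below at Ggct near Nod1, with 18 and 9 reads and a ratio of 2.00 (0.853 to 5.05), and at Ehbp1l1 near Rela, with 23 and 15 reads and 1.53 (0.766 to 3.16). The same held at Prmt1 near Irf3, with 16 and 12 reads and a ratio of 1.33 (0.592 to 3.09). Each pileup was taken at the summit of its own peak. At Ehbp1l1 the summits lay more than 200 bp apart, so that ratio compares different positions. Of all sites in both lists, 83% had more reads with GATA2, and the median ratio was 1.5. Prmt1 was the only one of the 5 with WGATAR. The backgrounds of the lists, 0.464 reads for GATA2 and 0.455 for 9aa-Ins, were alike, and no further scaling was applied.

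**Figure D4:**
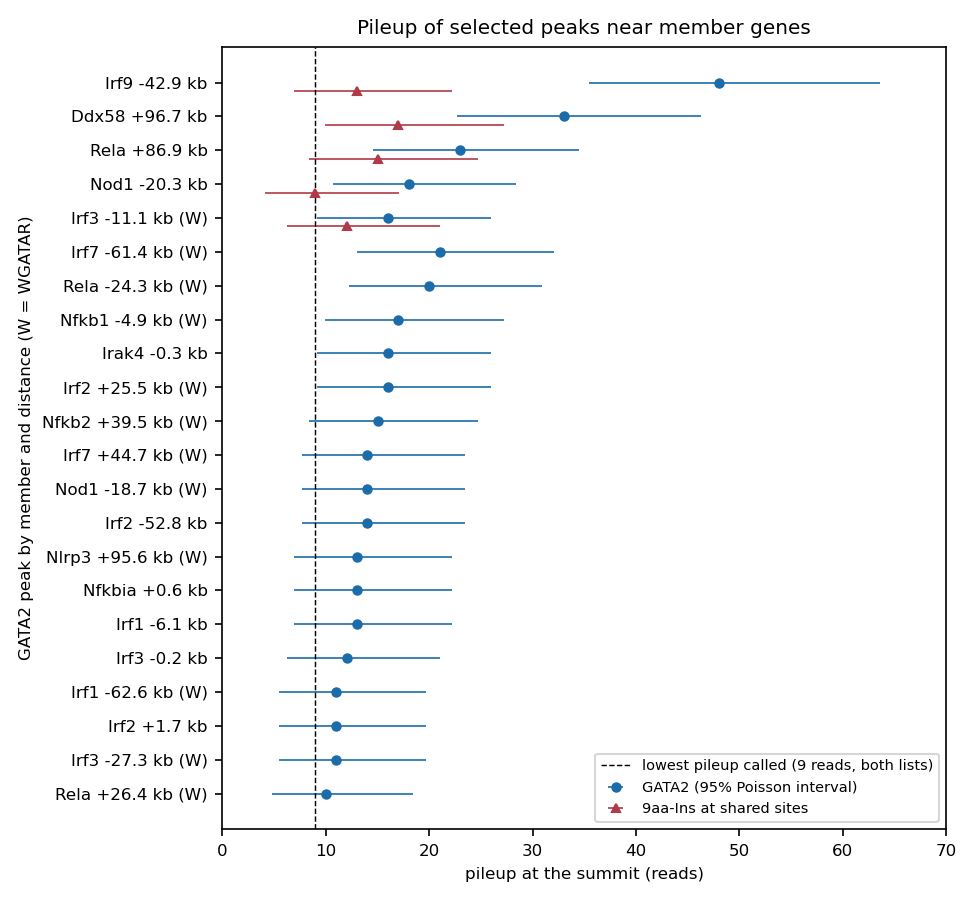
Pileup in reads at the summit of the GATA2 peaks that are closest to a member, within 10 kb of it, in both lists or marked W for WGATAR (circles), with the 9aa-Ins pileup at the 5 shared sites (triangles); bars are exact Poisson 95% intervals and the dashed line is the lowest pileup called, 9 reads. Most peaks have 10 to 21 reads and intervals that reach the line or come close to it, while the Irf9 site has 48 reads with GATA2 and 13 with 9aa-Ins.

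Other genes of the same pathways were followed in a list of 42 further receptors, kinases, adaptors and regulators. Of these, 32 had a GATA2 peak within 100 kb (76.2%, interval 61.5 to 86.5, against 52.1% of all genes) and 14 within 10 kb (33.3%, interval 21 to 48.4, against 21.7%), and the median distance was 31 kb. For 9aa-Ins the counts were 12 (28.6% against 18.6%) and 2 (4.76% against 5.53%). Gene density around these 42 genes was not analysed here, and its part in these shares was not tested. Many of the linked peaks are closest to the start of another gene. Both chains of the interferon-gamma receptor had peaks at their promoters, with 31 reads at Ifngr1, 172 bp from the start, and 26 and 21 reads at Ifngr2. The interferon-receptor kinase gene Tyk2 had 13 reads at its start, and Stat2, which acts with IRF9 in type I interferon signalling, had 11 reads 84 bp upstream. Among TLR adaptors and regulators, Ticam1, the adaptor of TLR3, had 21 reads 105 bp upstream with AGATAA, and Unc93b1, which carries endosomal TLRs, had 12 reads 5.44 kb upstream at Aldh3b1. Trim25, a ubiquitin ligase that activates RIG-I, had 16 reads 9.64 kb upstream in an intron of Coil.

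In the NF-kB branch of that list, Rel had 15 reads 5 bp from its start, Tab2 15 reads 86 bp upstream and Cyld the 21 reads already given beside Nod2. Tab1 had 22 reads 207 bp downstream and 16 reads 2.38 kb upstream. Nfkbib had 20 reads 1.07 kb downstream, closest to Sirt2. Relb and Irf2bp2, which encodes a partner of IRF2, were the 2 genes whose promoter sites were in both lists. Relb had 17 reads with GATA2 and 14 with 9aa-Ins, and Irf2bp2 had 27 and 21. Within 10 kb, Irf2bp2 had 2 further GATA2 peaks upstream, of 12 reads at 2.5 kb and 13 reads at 4.34 kb, the second with WGATAR.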

How the data were processed

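CUT&Tag was run with anti-HA antibody on sorted hi-77-/- cells expressing HA-GATA2 or 9aa-Ins. The authors aligned reads to mm10 with Bowtie2 and called peaks with MACS3 at a q-value of 1e-06, and versions were not given in the sources used here. The labels call each deposited list a merge of both replicates. The study's methods instead have peaks called in each replicate and then merged. Because every list has 1 background value, it was read here as 1 call on merged reads. The deposited columns are a score per peak, the fold enrichment (a ratio), the −log10 p-value and the −log10 q-value, all set by the authors' peak caller. Library read totals are not analysed here. 0 columns belonged to other samples.

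Fold enrichment equals the pileup plus 1 over the background plus 1. From this, 100% of pileups came out whole within 0.01 reads, and Poisson p-values made from those pileups stayed within 5.32e-04 of the deposited −log10 p-values. Genes were from GENCODE M21 without the mitochondrial chromosome, and sequence was from RefSeq GRCm38.p6. Peaks were linked to every gene start within 100 kb, and sites were called shared from 1 bp of overlap. Shares have Wilson and pileups exact Poisson 95% intervals, which cover counting error only, since PCR reads without molecular identifiers are not independent molecules. Ratios of pileups have exact binomial intervals.

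All members were accounted for by role. Those with a peak were named with the nearest one and with any that had WGATAR, was shared or lay within 10 kb, and genes of the other pathway list were named with a peak within 10 kb. The rule for printed sites gave 6, of which the one at Prmt1 overlapped an untranslated region and was left out. The members and lists were chosen with earlier results of these data known, so no test was made over them. The division by gene density was added after the values were seen. Alternatives were the distance, the q-value, the start used, the nearest gene, the overlap, the motif window and the promoter window. Functions were tested on simulated data. Analyses used Python 3.11.15, pandas 2.3.3, numpy 2.4.6, scipy 1.17.1, pyfaidx 0.9.0.4 and matplotlib 3.10.9.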

Additional observations from a re-analysis of the deposited data

How the results depend on the processing

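Of 59 alternative values, 31 stayed within 1.5 times the reported count or within the interval of the reported share, and 28 moved, 21 of them with the distance or with linking to the nearest gene only, which fix how many peaks are counted. With limits of 10, 50 and 200 kb, GATA2 peaks near members numbered 6, 30 and 119, and the share of all protein-coding genes with one was 21.7%, 39.6% and 65.4%. Members with a GATA2 peak numbered 6 at 10 kb. 9aa-Ins peaks numbered 1 at 10 kb and 24 at 200 kb, near 1 and 12 members. The promoter share was 33.3% at 10 kb and 53.3% at 50 kb, and the shared share 0% at 10 kb and 17.6% at 200 kb. With the nearest gene only, 7 GATA2 peaks at 5 members and 1 9aa-Ins peak at 1 member remained, with 14.3% at a promoter and 0% shared, and 20.3% of all genes were the nearest gene of a GATA2 peak. At a q-value of 1e-10, 4 9aa-Ins peaks at 4 members and 47.6% of all genes were left. Measured from any transcript start, 54.1% of all genes had a GATA2 peak. WGATAR was in 11.5% of windows of 50 bp and 36.5% of windows of 200 bp to each side of the summit, and requiring a reciprocal overlap of 50% left 3.85% shared. No paired analysis was possible because replicates were merged in both lists, and for the same reason no replicate could be left out. Pileups of 9 to 21 reads limit nearly every peak near a member: where 9aa-Ins was not called, up to 8 reads may have been present.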
